A study of Mus musculus with 2 samples.

Results

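The 9 genes described here encode acute phase and antimicrobial proteins of the mouse: *Saa1*, *Saa3*, *Hp*, *Lrg1*, *Lcn2*, *Slpi*, *Ptx3*, *Serpina3n* and *Defb6*. They were taken by symbol from the 31053 genes of the matrices, and each symbol matched 1 gene. The study compared wound tissue of the back skin 5 days after wounding between 2 single-cell libraries, 1 from C57BL/6 *Mrc1-DTR* mice given PBS and 1 from *Mrc1-DTR* mice given diphtheria toxin (DTX), all 7 to 9 weeks old. In these mice the promoter of *Mrc1*, the gene for the macrophage mannose receptor CD206, drives a receptor for diphtheria toxin, so the PBS library carries the same allele as the DTX library. In the methods of the study, toxin was given to wild-type animals as the control. The labels instead give *Mrc1-DTR* mice and PBS, and groups are called here by the labels. The text of the study also gives the numbers of cells of the 2 libraries to the opposite groups, so PBS and DTX mean the libraries so labelled, and every direction rests on those labels. In composition, the study describes its *Mrc1-DTR* wounds as the DTX library runs here, with more immune cells and fewer fibroblasts. That description comes from the same 2 libraries and is no independent check of the labels. By flow cytometry the study also reports fewer fibroblasts and a larger share of immune cells in its *Mrc1-DTR* wounds. That measurement was made outside the 2 libraries and does not show which library is which. Live cells of pooled mice were sorted and captured with 10x 3' chemistry. With 1 library per group, no test between PBS and DTX was possible, and differences between mice or captures cannot be told apart from the treatment.

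The acute phase response is the change in secreted proteins that follows injury or infection. Cytokines such as interleukin-6, oncostatin M and interleukin 1 induce its genes through STAT3, C/EBP and NF-kB factors, mainly in the liver but also in cells at the site of damage. Serum amyloid A proteins (*Saa1*, *Saa3*) are lipid-binding proteins that attract leukocytes, haptoglobin (*Hp*) captures free haemoglobin, and LRG1 (*Lrg1*) is a secreted leucine-rich glycoprotein known from blood vessels and neutrophil granules. Lipocalin-2 (*Lcn2*) withholds iron from bacteria by binding their siderophores, and SLPI (*Slpi*) inhibits neutrophil elastase. Pentraxin 3 (*Ptx3*) is a soluble pattern recognition protein, SERPINA3N (*Serpina3n*) inhibits serine proteases, and *Defb6* encodes a beta-defensin of epithelia.

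A total of 7944 cells of the PBS library and 6613 cells of the DTX library were kept, with a median of 9579.5 and 7286 UMIs per cell. Levels are CPM, the UMIs of a gene summed over the cells of a class and scaled to counts per 1e6 UMIs of that class, with exact 95% Poisson intervals in parentheses. All intervals cover counting error only and say nothing about differences between mice. Classes were clustered without the 9 genes. The libraries share 37 cell barcodes, 0.335% of those of the smaller library. Macrophage-like cells, monocyte-like cells included, held 491 CPM (477 to 507) of *Mrc1* in the PBS library and 428 CPM (421 to 436) in the DTX library, levels too close to check the labels by the gene that drives the toxin receptor. They numbered 1706 of 7944 PBS and 4444 of 6613 DTX cells, with 4106 and 13151 UMIs of *Mrc1*. The library labelled DTX thus held more *Mrc1* RNA in macrophage-like cells, not less. How this bears on the labels was not tested. Monocyte-like cells are the macrophage-like cluster with *Ifitm6*, *Vcan*, *Chil3* and *Plac8* among its leading genes. Of the 7 monocyte markers listed, *Ly6c2* included, 4 were raised in this cluster, and *Ly6c2* was not among its leading genes. Monocyte-like cells numbered 43 in the PBS library and 1169 in the DTX library (*Mrc1* at 105 and 318 CPM). This cluster may thus be a feature of 1 library rather than a type. Fibroblast-like cells fell from 38.6% to 9.93% of kept cells and keratinocyte-like cells from 26.0% to 3.55%, while neutrophil-like cells made up 1.64% and 6.93%. Because whole libraries differ so widely in their cells, ratios are given within classes, and a gene was called higher or lower in DTX at 2-fold or more with the counting interval of the ratio on the same side of 0, among genes with at least 50 UMIs.

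RNA of other cells also reached each class. For fibroblast and keratinocyte genes this was more so in the PBS library. The sum of 6 fibroblast genes (*Col1a1*, *Col1a2*, *Col3a1*, *Dcn*, *Lum*, *Sparc*) stood at 647 CPM in PBS and 145 CPM in DTX NK- or T-like cells, and that of 6 keratinocyte genes at 386 and 98.1 CPM. Neutrophil genes ran the other way. The sum of 5 of them (*S100a8*, *S100a9*, *Retnlg*, *Csf3r*, *Cxcr2*) stood at 9.82 CPM in PBS and 138 CPM in DTX NK- or T-like cells. In fibroblast-like cells it stood at 7.22 and 69.3 CPM. None of the fibroblast or keratinocyte genes was at 0 in monocyte-like, other macrophage-like, neutrophil-like, fibroblast-like or keratinocyte-like cells. In DTX endothelial-like and DTX mast-like cells, 1 of the 6 keratinocyte genes was at 0. NK- or T-like cells, which are not known to make the 9 proteins in quantity, serve as the background for shares of cells. Their median depth was 6534 UMIs in PBS and 8059 UMIs in DTX.

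The 9 genes fell into groups by the class that held most of their UMIs. *Saa1*, *Saa3*, *Ptx3* and *Serpina3n* were fibroblast-like genes, with 94.99%, 98.3%, 98.8% and 98.6% of their PBS UMIs in fibroblast-like cells, a class with 43.1% of all PBS UMIs. *Defb6* was held by keratinocyte-like cells, with 98.1% of its UMIs in PBS and 96.7% in DTX. *Hp*, *Lrg1*, *Lcn2* and *Slpi* were spread over several classes. The largest share of *Hp* moved from fibroblast-like cells in PBS (72.8%, exact binomial interval 71.1% to 74.6%) to monocyte-like cells in DTX (49.7%, 48.7% to 50.7%). For *Slpi* the same shift was from 50.9% (49.9% to 52.0%) in fibroblast-like cells to 36.5% (35.9% to 37.1%) in monocyte-like and 32.1% (31.6% to 32.7%) in neutrophil-like cells. *Lrg1* was mainly endothelial-like (41.9%) and fibroblast-like (40.7%) in PBS and mainly monocyte-like (40.1%) and neutrophil-like (22.0%) in DTX. Its PBS level was 299 CPM in endothelial-like but 8.71 CPM in fibroblast-like cells. The shares also follow the size of the classes. Of all UMIs, monocyte-like cells held 0.294% in PBS and 15.8% in DTX, neutrophil-like cells 0.247% and 2.04%, and fibroblast-like cells 43.1% and 17.7%. *Lcn2* stayed largest in fibroblast-like cells at 82.8% in PBS and 49.9% in DTX, where neutrophil-like cells held 25.5%. These shares depend on the depth of the cells kept. Under the limit of 2000 genes per cell that the methods of the study state, 89.6% of DTX *Lcn2* was neutrophil-like and 1.196% fibroblast-like. That limit left 59 fibroblast-like and 420 neutrophil-like DTX cells. Under the same limit PBS *Hp* was 44.1% other macrophage-like and 11.8% fibroblast-like, DTX *Saa3* was 44.1% monocyte-like, 35.5% other macrophage-like and 12.7% fibroblast-like, and neutrophil-like cells held most of *Slpi* (35.7% in PBS, 56.9% in DTX) and *Lrg1* (44.0% and 60.7%).

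**Figure D1:**
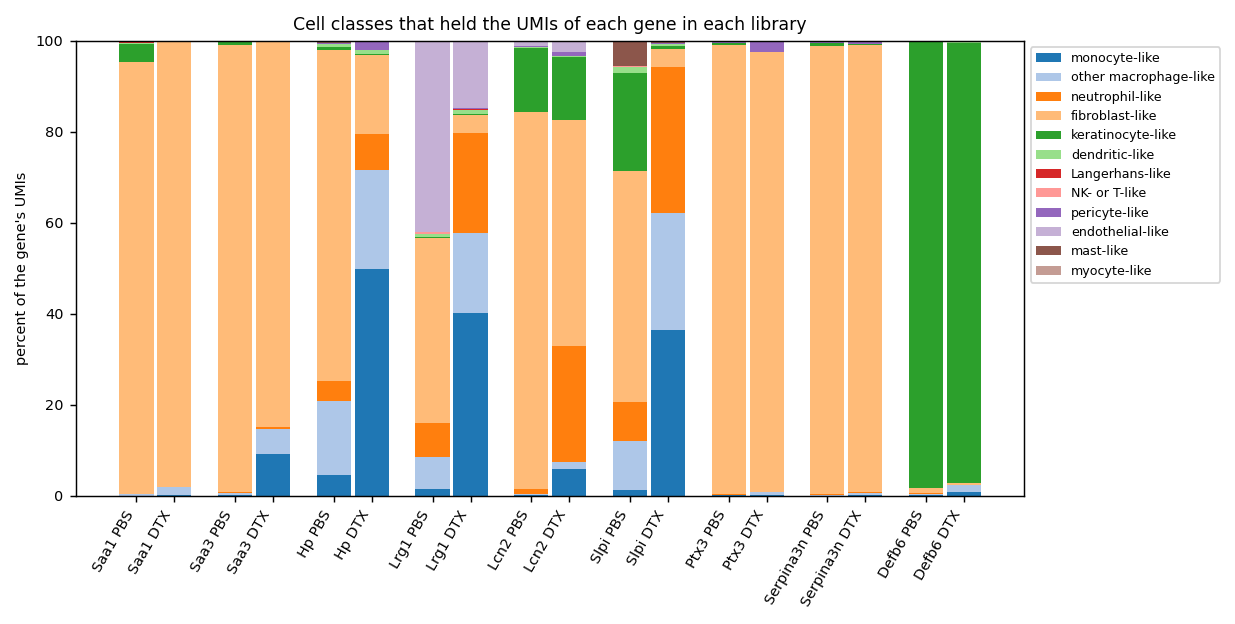
Stacked bars give the percent of each gene's UMIs (y axis) held by each cell class, with 1 bar for the PBS and 1 for the DTX library of each gene. *Ptx3*, *Serpina3n*, *Saa1* and *Saa3* stay mostly fibroblast-like and *Defb6* keratinocyte-like, while *Hp*, *Lrg1* and *Slpi* move towards monocyte-like and neutrophil-like cells in DTX.

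Counted over whole libraries, ratios mix the levels within classes with the shares of the classes. *Slpi* was at 115 CPM in PBS and 468 CPM in DTX, a log2 ratio of 2.02, but weighting the DTX class levels by the PBS class shares gave 0.01. *Defb6* went from 758 to 226 CPM, a log2 ratio of -1.74, and to 0.52 with the PBS class shares. For *Hp* the log2 ratio was 2.53 over whole libraries and 1.59 at the PBS composition, and for *Lrg1* 2.57 and 1.01, so that these kept a higher DTX level. *Serpina3n* kept a lower one, at -1.86 and -0.60. *Lcn2* differed by 0.05 over whole libraries and by 1.01 at the PBS composition. *Saa1* (-0.16 and 1.03), *Saa3* (-0.66 and 0.40) and *Ptx3* (-0.68 and 0.56) changed sign as *Defb6* did.

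Before the class results, the sequences before the genes are shown for the 3 genes called higher in monocyte-like cells and for *Lcn2*, which was called higher in neutrophil-like and keratinocyte-like cells. RefSeq promoter windows (GRCm38.p6, 300 bases around the gene start, written 5' to 3' on the strand of the gene) were found for 8 of the 9 genes, *Hp* being the exception. They were searched on both strands for 4 motifs: C/EBP (TTNCNNAA), STAT (TTCNNNGAA), NF-kB (GGGANTTTC) and AP-1 (TGANTCA). Capitals mark the C/EBP matches, which overlap no other motif, since none of the other 3 motifs matched in any of the 8 windows. The windows lie at chr7:46715627-46715926 on the minus strand (*Saa3*), chr2:164356458-164356757 on the minus strand (*Slpi*), chr17:56121897-56122196 on the minus strand (*Lrg1*) and chr2:32387690-32387989 on the minus strand (*Lcn2*). The *Slpi* and *Lcn2* windows lie inside their genes as annotated, away from the outermost start of each.
Saa3: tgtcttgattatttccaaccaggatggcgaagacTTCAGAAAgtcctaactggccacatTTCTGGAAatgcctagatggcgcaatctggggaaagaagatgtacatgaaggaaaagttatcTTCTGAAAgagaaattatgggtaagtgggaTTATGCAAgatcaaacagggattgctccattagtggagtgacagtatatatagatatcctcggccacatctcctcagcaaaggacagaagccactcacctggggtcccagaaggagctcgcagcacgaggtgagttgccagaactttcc
Slpi: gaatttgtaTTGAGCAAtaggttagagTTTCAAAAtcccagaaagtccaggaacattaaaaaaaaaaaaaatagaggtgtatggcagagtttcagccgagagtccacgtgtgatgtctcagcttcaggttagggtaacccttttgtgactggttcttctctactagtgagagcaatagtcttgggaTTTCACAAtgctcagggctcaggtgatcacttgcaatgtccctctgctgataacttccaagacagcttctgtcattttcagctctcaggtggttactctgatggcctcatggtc
Lrg1: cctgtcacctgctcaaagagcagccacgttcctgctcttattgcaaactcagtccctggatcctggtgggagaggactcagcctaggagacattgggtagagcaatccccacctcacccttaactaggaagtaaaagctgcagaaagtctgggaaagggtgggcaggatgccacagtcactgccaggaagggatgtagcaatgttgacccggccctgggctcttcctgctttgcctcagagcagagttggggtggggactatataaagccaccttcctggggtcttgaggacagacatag
Lcn2: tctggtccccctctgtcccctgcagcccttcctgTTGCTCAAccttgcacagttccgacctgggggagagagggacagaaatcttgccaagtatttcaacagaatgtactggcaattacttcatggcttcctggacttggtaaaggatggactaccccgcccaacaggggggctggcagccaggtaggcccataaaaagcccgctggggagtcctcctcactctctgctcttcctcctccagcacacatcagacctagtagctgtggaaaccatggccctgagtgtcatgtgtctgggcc
The C/EBP letters occurred 4 times in the *Saa3* window, 3 times in that of *Slpi*, once in that of *Lcn2* and not in that of *Lrg1*. Over all 32851 promoter windows, 40.7% held a C/EBP match, 8.30% a STAT, 1.11% an NF-kB and 7.81% an AP-1 match. *Saa3* (ENSMUSG00000040026) lies on chromosome 7 from 46711998 to 46715700 and *Saa1* (ENSMUSG00000074115) close by from 46740497 to 46742980, both on the minus strand of GRCm38. *Slpi* (ENSMUSG00000017002) lies on chromosome 2 from 164354070 to 164389095, *Lcn2* (ENSMUSG00000026822) on chromosome 2 from 32384633 to 32388252 and *Lrg1* (ENSMUSG00000037095) on chromosome 17 from 56119678 to 56122001. All 9 genes are protein-coding. Within the last 400 bases of the transcripts, 8.44% of the 50-base stretches of *Saa1* also occur in other genes, mostly in its neighbour *Saa2*, so reads of *Saa1* are partly uncertain. For *Saa3* the share was 9.25%, most of it with the abundant transcript *Malat1*, so its reads are partly uncertain too, and for the other 7 genes it was 0.

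In monocyte-like cells, *Saa3*, *Lrg1* and *Slpi* were higher in the DTX library, while *Hp* stood at a high level in both. *Saa3* had 14 UMIs in the PBS cells, a level of 58.6 CPM (32.1 to 98.4), and 4299 UMIs in the DTX cells, a level of 497 CPM (482 to 512). The log2 ratio was 3.06 (2.33 to 3.95). Of the 14 PBS UMIs, 9 came from 1 cell, and without the cell with most UMIs in each library the log2 ratio was 4.46. The gene was unevenly spread in DTX as well, where 1 cell held 120 of the UMIs and 37.2% of cells held any. *Lrg1* stood at 46.1 CPM (23.0 to 82.4) in PBS and 152 CPM (144 to 160) in DTX, a log2 ratio of 1.70 (0.88 to 2.73). *Slpi* stood at 461 CPM (379 to 555) and 1083 CPM (1061 to 1105), a log2 ratio of 1.23 (0.96 to 1.52). It was 1.86 without the cell with most UMIs in each library, as 1 PBS cell held 41 of the 110 UMIs, and 0.92 with doublets kept. *Hp*, at 477 CPM (394 to 573) and 577 CPM (562 to 594), differed by a log2 ratio of 0.27 (0.01 to 0.56). *Lcn2* had only 3 UMIs in the PBS cells and 266 in the DTX cells, and its log2 ratio of 1.23 had an interval from -0.27 to 3.58.

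Of the 9 genes, 6 had enough UMIs in monocyte-like cells. Of these 6, 3 were called higher and 0 lower, whereas 3.11% of the 7270 genes measured were called higher and 2.05% lower. Their median log2 ratio was 1.23, against 0.12 for all genes. The count of 0 lower and this median hold only for the genes that passed the UMI limit. *Ptx3*, with 4 PBS and 33 DTX UMIs, did not pass and stood at -1.88 (-3.63 to -0.18). *Serpina3n*, with 2 and 13 UMIs, stood at -1.91 (-4.62 to 0.71), and *Saa1* had 0 and 1 UMIs. The PBS side of each ratio rests on 43 cells. Genes that the study itself drew from these libraries for its *Vcan*-expressing macrophages include *Lcn2*, *Hp*, *Lrg1*, *Slpi* and *Saa3*, so their direction here is not independent evidence. The 6 fibroblast genes stood at 808 CPM in PBS and 156 CPM in DTX monocyte-like cells. In the ratio of fibroblast-like cells this amount would carry 27.0 and 9.53 CPM of *Saa3*. The 5 neutrophil genes *S100a8*, *S100a9*, *Retnlg*, *Csf3r* and *Cxcr2* stood at 67.0 CPM in PBS, with 2 of the 5 at 0, and at 193 CPM in DTX, with none at 0. In the ratio of neutrophil-like cells the DTX amount would carry 16.2 CPM of *Slpi*, 1.41 CPM of *Lrg1* and 1.56 CPM of *Hp*. The part of neutrophil RNA in these ratios was not tested beyond these values.

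With every cell thinned to 2000 UMIs, *Saa3* was detected in 4.65% (0.568% to 15.8%) of the 43 PBS and in 24.8% (22.3% to 27.4%) of the 1166 DTX monocyte-like cells. Without thinning the share in PBS was 14.0%. *Hp* was detected in 53.5% (37.7% to 68.8%) and 55.5% (52.6% to 58.4%), *Lrg1* in 6.98% (1.46% to 19.1%) and 20.8% (18.5% to 23.2%), and *Slpi* in 27.9% (15.3% to 43.7%) and 45.5% (42.6% to 48.4%). In NK- or T-like cells thinned alike, *Saa3* was detected in 5.94% of PBS and 1.99% of DTX cells, *Hp* in 0% and 0.662%, *Lrg1* in 0% and 0.662%, and *Slpi* in 0.913% and 2.65%. The wide interval of the PBS share of *Saa3* in monocyte-like cells holds the background share, so the 2 shares cannot be told apart. By level, PBS *Saa3* stood at 58.6 CPM (32.1 to 98.4) in monocyte-like cells and at 22.1 CPM (15.5 to 30.6) in NK- or T-like cells. As given above, most of the PBS monocyte-like UMIs came from a single cell. At least 3 of the 5 genes *Saa3*, *Hp*, *Lrg1*, *Lcn2* and *Slpi* were detected together in 2.33% of PBS and 17.4% of DTX monocyte-like cells.

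The other macrophage-like clusters carried these genes at lower levels, which ran in order within the DTX library. *Hp* stood at 577 CPM in cluster 1, the monocyte-like cells, at 158 CPM (132 to 187) in the interferon cluster, at 128 CPM (120 to 137) in the *Arg1*-high cluster, at 113 CPM (104 to 122) in the cluster led by MHC class II genes, at 79.9 CPM (72.9 to 87.3) in the cluster led by *Ccl7* and *Cbr2*, at 56.0 CPM (41.9 to 73.2) in the cluster led by *Hspa1a* and at 15.2 CPM (10.1 to 22.0) in cluster 0, led by *C1q* genes. The intervals of the interferon and *Arg1*-high clusters overlapped, as did those of the *Arg1*-high and MHC class II clusters and those of the *Ccl7* and *Hspa1a* clusters. *Slpi* stood at 1083 CPM in monocyte-like cells, at 461 CPM (446 to 478) in the *Arg1*-high cluster at 90.1 CPM (76.9 to 105) in cluster 0 and at 42.2 CPM (30.2 to 57.5) in the *Hspa1a* cluster. *Saa3* followed its highest level of 497 CPM with 186 CPM (176 to 198) in the *Ccl7* cluster, whose interval overlapped that of the interferon cluster, and the lowest level, 51.6 CPM (41.7 to 63.1) in cluster 0, overlapped that of the MHC class II cluster. *Lrg1* was likewise highest in monocyte-like cells and lowest in cluster 0, at 4.34 CPM (1.88 to 8.56).

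**Figure D2:**
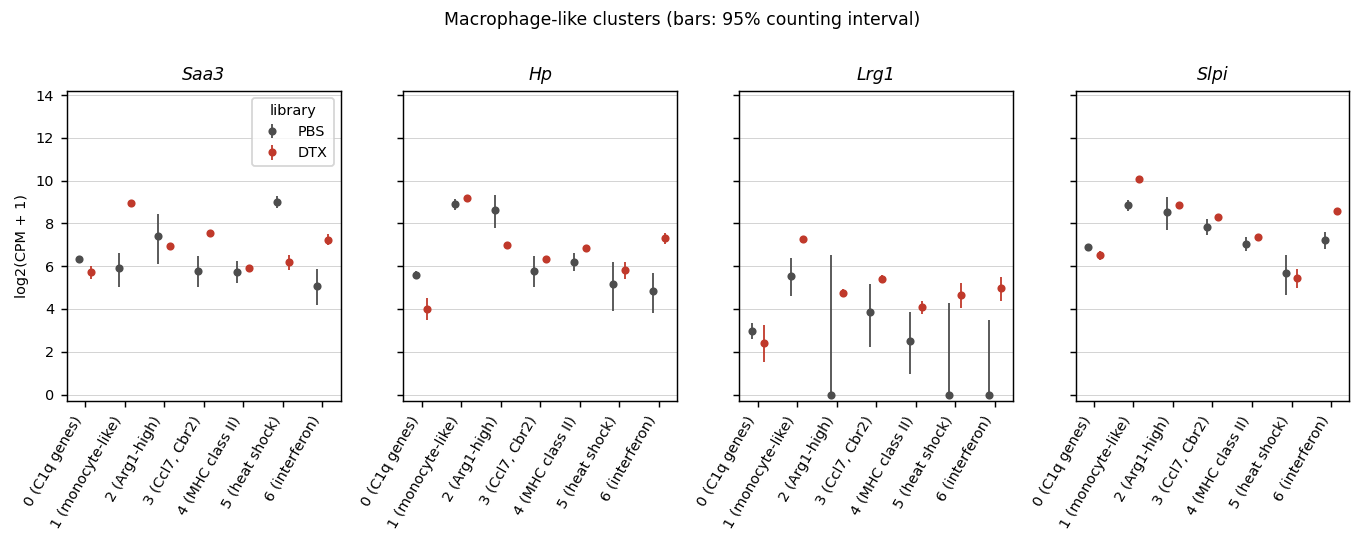
Points give log2(CPM + 1) of 4 genes (y axis) in the 7 macrophage-like clusters (x axis, with their leading genes) for the PBS and the DTX library, and bars give 95% counting intervals. In DTX all 4 genes are highest in the monocyte-like cluster, at 497 CPM for *Saa3*, 577 CPM for *Hp*, 152 CPM for *Lrg1* and 1083 CPM for *Slpi*; the *Arg1*-high cluster has only 8 PBS cells.

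In macrophage-like cells other than the monocyte-like ones, 8 of the 9 genes could be compared. *Lrg1* rose from 6.41 CPM (4.79 to 8.40) to 26.1 CPM (24.0 to 28.4), a log2 ratio of 1.87 (1.62 to 2.47), and *Slpi* from 123 CPM (116 to 131) to 298 CPM (291 to 306), a log2 ratio of 1.27 (1.18 to 1.37). These were the 2 genes called higher, beside 1.46% of 9831 genes. *Hp* came close with 50.3 CPM (45.5 to 55.4) and 99.7 CPM (95.6 to 104), a log2 ratio of 0.97 (0.84 to 1.14), and *Saa3* differed by 0.45 (0.34 to 0.58). *Hp* passed the limit at 1.06 without the cell with most UMIs in each library and at 1.15 with doublets kept. The class is made of different clusters in the 2 libraries, with 1377 of 1663 PBS cells but 336 of 3275 DTX cells in cluster 0. Within cluster 0 the ratios went the other way for *Hp*, called lower at -1.58 (-2.26 to -1.08), while *Slpi* stood at -0.37 (-0.63 to -0.13) and *Lrg1* at -0.55 (-1.95 to 0.44). *Hp* and *Slpi* were called higher in the interferon cluster, at 2.49 and 1.37, on 10 and 54 PBS UMIs. *Lrg1* was called higher in the *Ccl7* and MHC class II clusters, at 1.55 and 1.58. Its calls rest on 4 and 3 PBS UMIs, with lower interval ends of 0.24 and 0.17. *Slpi* was not called in the *Ccl7*, MHC class II and *Hspa1a* clusters, at 0.48, 0.33 and -0.24. Neither was *Hp*, at 0.54, 0.63 and 0.66. No share of all genes called is given for single clusters. *Saa3* was called higher in the interferon and *Ccl7* clusters, at 2.16 and 1.75, on 12 and 16 PBS UMIs. It was called lower in the *Hspa1a* cluster, at -2.84. It was not called in the MHC class II cluster and cluster 0, at 0.15 and -0.62.

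Called lower in these cells were *Ptx3*, *Serpina3n* and *Defb6*, beside 2.65% of all genes. *Serpina3n* stood at 14.8 CPM (12.3 to 17.7) in PBS and 2.45 CPM (1.84 to 3.20) in DTX, and *Ptx3* at 11.8 CPM (9.58 to 14.4) and 4.54 CPM (3.69 to 5.52). The 6 fibroblast genes stood at 911 and 193 CPM in the same cells, an amount that in the ratio of fibroblast-like cells would carry 15.5 and 3.02 CPM of *Serpina3n* and 12.5 and 5.41 CPM of *Ptx3*. *Defb6* stood at 32.0 CPM (28.3 to 36.2) and 8.58 CPM (7.40 to 9.89), beside 28.5 and 11.8 CPM from the keratinocyte genes in the ratio of keratinocyte-like cells. The part of RNA from other cells in these 3 ratios was not tested beyond these values. *Ptx3*, *Serpina3n* and *Defb6* are on the list that the study drew from these libraries for its *C1qa*-expressing macrophages.

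Neutrophil-like cells had the highest *Slpi* levels of any class, at 3985 CPM (3714 to 4272) in PBS and 7380 CPM (7222 to 7541) in DTX. The log2 ratio of 0.89 (0.78 to 1.00) was just under the limit of 1. With the ratios scaled to the median of 640 genes of the class, which lay at -0.25, it was 1.14. Over all 2807 genes with enough UMIs the median was -0.13. *Lcn2* was called higher, from 384 CPM (303 to 480) to 1056 CPM (996 to 1118), a log2 ratio of 1.46 (1.13 to 1.81). *Lrg1* was called higher too, from 284 CPM (215 to 368) to 644 CPM (598 to 693), a log2 ratio of 1.18 (0.79 to 1.60). *Hp* stood at 559 CPM (460 to 672) and 713 CPM (665 to 765), and *Saa3* at 249 CPM (185 to 329) and 186 CPM (162 to 213), with log2 ratios of 0.35 (0.07 to 0.65) and -0.42 (-0.88 to 0.05). Thus 2 of the 5 genes with enough UMIs were higher and 0 lower, whereas 4.56% of 2807 genes were called higher and 4.7% lower. The count of 0 lower holds only for genes that passed the UMI limit. *Defb6* (22 PBS and 22 DTX UMIs), *Ptx3* (7 and 8) and *Serpina3n* (6 and 5) did not pass. Their log2 ratios were -2.42 (-3.40 to -1.56), -2.14 (-3.95 to -0.59) and -2.50 (-4.79 to -0.77). The part of RNA from other cells in them was not tested. *Saa1* had 0 and 1 UMIs.

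These cells were shallow, with a median of 1229 UMIs in the 130 PBS and 1914 UMIs in the 458 DTX cells. The 5 neutrophil genes stood at 37849 CPM in PBS and 87964 CPM in DTX in these cells and the 6 fibroblast genes at 2419 and 422 CPM. Doublets were removed by different rules in the 2 libraries. With doublets kept, the class held 132 PBS and 560 DTX cells, and neither *Lcn2* (0.92) nor *Lrg1* (0.75) reached the limit. At 1000 UMIs per cell, *Lcn2* was detected in 23.6% (16.1% to 32.7%) of 110 PBS and 39.0% (34.5% to 43.6%) of 454 DTX neutrophil-like cells, *Lrg1* in 23.6% (16.1% to 32.7%) and 42.1% (37.5% to 46.8%), and *Slpi* in 83.6% (75.4% to 90.0%) and 87.0% (83.6% to 90.0%). Only 12 PBS cells reached 2000 UMIs. Among the 200 DTX cells that did, 56.0% held at least 3 of the 5 genes *Saa3*, *Hp*, *Lrg1*, *Lcn2* and *Slpi*, the highest share of the 5 classes.

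Fibroblast-like cells held most UMIs of *Saa3*, *Ptx3*, *Serpina3n* and *Saa1* in both libraries, for DTX *Saa3* only without the limit of 2000 genes, and 2 of the 9 genes were called higher in DTX and 1 lower, beside 2.65% and 1.4% of 11814 genes. *Hp* rose from 52.3 CPM (49.9 to 54.7) to 178 CPM (170 to 187), a log2 ratio of 1.75 (1.67 to 1.87). *Saa1* rose from 27.6 CPM (25.9 to 29.4) to 61.2 CPM (56.4 to 66.3), a log2 ratio of 1.12 (1.00 to 1.30). It is a gene of few cells, detected in 1.41% (1.02% to 1.90%) of PBS and 4.46% (3.01% to 6.34%) of DTX cells after thinning, and without the richest cell of each library the log2 ratio was 0.99. *Defb6* was called lower, from 19.8 CPM (18.4 to 21.3) to 5.14 CPM (3.82 to 6.78), beside 21.9 and 7.73 CPM from keratinocyte genes in the keratinocyte-like ratio.

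The most abundant genes changed less. *Saa3* stood at 3083 CPM (3065 to 3102) in PBS and 4093 CPM (4053 to 4134) in DTX, a log2 ratio of 0.41 (0.39 to 0.43). *Ptx3* stood at 1268 CPM (1256 to 1280) and 1884 CPM (1857 to 1911), *Lcn2* at 156 CPM (152 to 160) and 237 CPM (228 to 247), and *Serpina3n* at 1574 CPM (1561 to 1587) and 1050 CPM (1029 to 1070). Their log2 ratios were 0.57, 0.60 and -0.58. *Slpi* stood at -0.38 and *Lrg1* at 0.60. The 6 fibroblast genes themselves stood at 92231 and 67075 CPM. With the ratios scaled to the median of 8975 genes of the class, which lay at 0.14, *Saa1* stood at 0.98. Over all 11814 genes with enough UMIs the median was 0.12.

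Fibroblast-like subclusters, of which the largest 4 are compared, showed that the class ratios mix different patterns. Of these 4, cluster 1, led by *Igfbp2* and *Grem1*, held the rise in *Saa3*. The level went from 2485 CPM (2455 to 2516) in 1042 PBS cells to 13477 CPM (13279 to 13677) in 96 DTX cells, a log2 ratio of 2.44 (2.41 to 2.47). The gene was found in 28.8% (26.0% to 31.7%) and 46.2% (35.8% to 56.9%) of these cells, and 1 DTX cell held 2146 of the 17704 UMIs. *Saa1* (2.68) and *Lcn2* (2.33) were called higher in the same cluster, and *Saa1* also in cluster 2, from 27.0 to 120 CPM (2.12, 1.77 to 2.53). Outside the largest 4, *Saa3* was called higher in cluster 4, led by myeloid genes, from 860 to 1984 CPM. It was also called higher in cluster 5, from 202 to 1248 CPM. *Saa1* went from 24.2 CPM, on 3 UMIs, to 367 CPM in cluster 5. These clusters held 43 and 24 DTX cells. In cluster 0, led by *Sfrp2* and *Mfap5* and named Mfap5 Prg4 fascia-like, *Saa3* differed by 0.07 (0.04 to 0.10), and in clusters 2 and 3 by -0.01 (-0.06 to 0.04) and -0.17 (-0.23 to -0.12). *Hp* was highest in cluster 0, at 112 CPM (107 to 118) in PBS and 276 CPM (262 to 290) in DTX, and stood at 4.21 and 4.57 CPM in cluster 1. It was also called higher in cluster 2, from 29.4 to 92.0 CPM (log2 ratio 1.61), and stood at 27.8 and 54.5 CPM in cluster 3.

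Of the largest 4 clusters, *Ptx3* was also highest in cluster 0, at 2131 CPM in PBS and 2890 CPM in DTX. Its log2 ratio was 0.44 there and -0.27, -0.82 and -0.72 in clusters 1, 2 and 3. The small cluster 5 held *Ptx3* at 1583 CPM in PBS and 6052 CPM in DTX. The higher *Ptx3* level of the whole class came with a larger part of cluster 0, which held 868 of 3066 PBS and 295 of 657 DTX cells. Among the largest 4 clusters, *Serpina3n* ran the opposite way, lowest in cluster 0 at 478 CPM in PBS and highest in cluster 1 at 2635 CPM. In cluster 5 *Serpina3n* stood at 24.2 CPM in PBS. Its log2 ratio was 0.66 in cluster 0, -0.45 in cluster 1, 0.25 in cluster 2 and -0.52 in cluster 3, so the lower class level was not found in every subcluster. *Lcn2* was called lower in cluster 3, led by *Coch*, at -1.98 (-2.51 to -1.55).

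**Figure D3:**
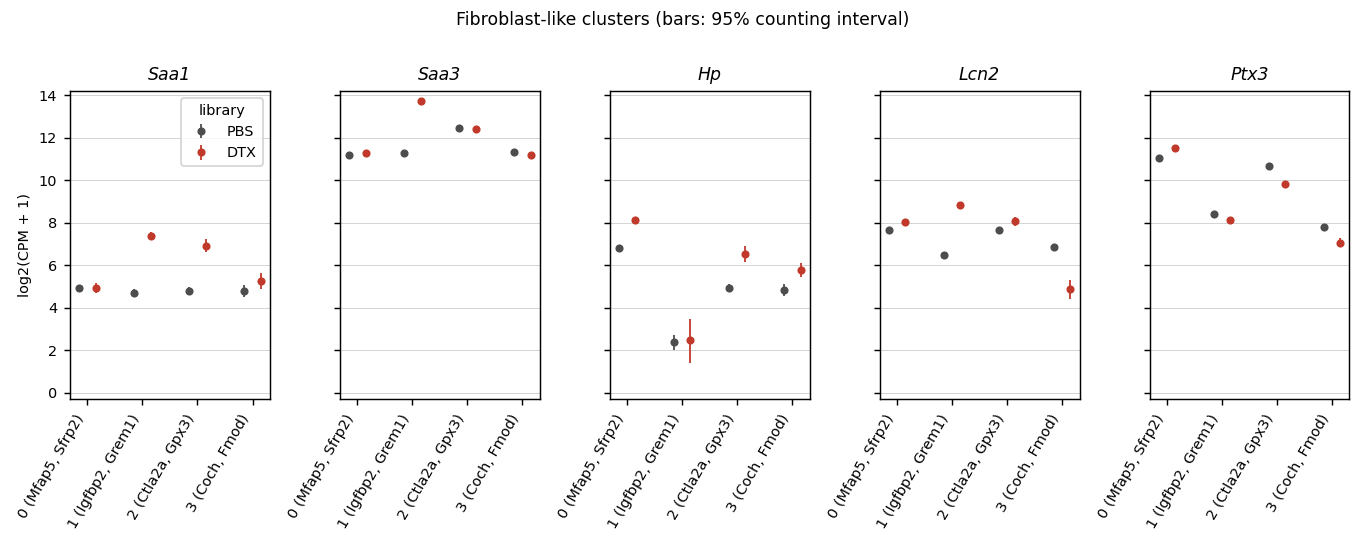
Points give log2(CPM + 1) of 5 genes (y axis) in the 4 largest fibroblast-like clusters (x axis, with leading genes) for both libraries, and bars give 95% counting intervals. *Saa1*, *Saa3* and *Lcn2* are higher in the DTX library in cluster 1, where *Saa3* goes from 2485 to 13477 CPM, and *Hp* is highest in cluster 0.

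Keratinocyte-like cells expressed *Defb6* at 2121 CPM (2104 to 2138) in PBS and 3089 CPM (3034 to 3145) in DTX, a log2 ratio of 0.54 (0.51 to 0.57) that was not called. The level was set by cluster 1, led by *Cst6*, *Krt79* and *Defb6*, where it stood at 7637 CPM (7570 to 7703) and 7487 CPM (7340 to 7637). The log2 ratio there was -0.03 (-0.06 to 0.00), and 92.5% and 93.9% of cells held a UMI after thinning. In the spinous cluster it was also -0.03 (-0.15 to 0.09). Cluster 1 held 523 of 2066 PBS and 85 of 235 DTX keratinocyte-like cells. Cluster 2, led by *Igfbp3*, *Itga2* and *Col17a1*, held the gene at 57.7 CPM in PBS.

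*Lcn2* was the gene called higher in keratinocyte-like cells, beside 2.67% of 10288 genes, from 32.8 CPM (30.7 to 35.0) to 164 CPM (151 to 177), a log2 ratio of 2.28 (2.17 to 2.46). It was detected in 2.90% (2.22% to 3.73%) of 2032 PBS and 14.4% (10.1% to 19.6%) of 229 DTX cells after thinning, against 0.457% and 0.662% of NK- or T-like cells. The rise was present in each cluster with enough cells, with log2 ratios of 4.22 in the spinous cluster, 1.33 in cluster 1 and 1.95 in cluster 3. The 5 neutrophil genes stood at 504 CPM in DTX and 110 CPM in PBS keratinocyte-like cells, with *S100a9* alone at 333 and 85.6 CPM. In NK- or T-like cells the 5 genes stood at 138 CPM in DTX and 9.82 CPM in PBS. Whether their RNA in keratinocyte-like cells came from neutrophils was not tested. If it did, the neutrophil-like ratio would carry 6.05 CPM of *Lcn2* in DTX and 1.12 CPM in PBS. Under the study's limit of 2000 genes per cell, with 12 DTX keratinocyte-like cells left, the log2 ratio of *Lcn2* was 0.31. *Slpi* stood at 70.5 CPM (67.4 to 73.6) in PBS and 45.3 CPM (38.9 to 52.5) in DTX. The 5 neutrophil genes, if from neutrophils, would carry 11.6 and 42.3 CPM.

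*Saa3*, *Ptx3* and *Serpina3n* were called lower in keratinocyte-like cells, beside 2.07% of all genes, at low levels throughout. *Saa3* went from 25.5 CPM (23.7 to 27.4) to 5.15 CPM (3.15 to 7.96). The 6 fibroblast genes fell from 711 to 93.8 CPM in these cells, an amount that in the fibroblast-like ratio would carry 23.8 and 5.72 CPM of *Saa3*. For *Serpina3n* the measured levels were 12.7 and 1.80 CPM beside 12.1 and 1.47 CPM, and for *Ptx3* 7.45 and 1.80 CPM beside 9.78 and 2.63 CPM.

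**Figure D4:**
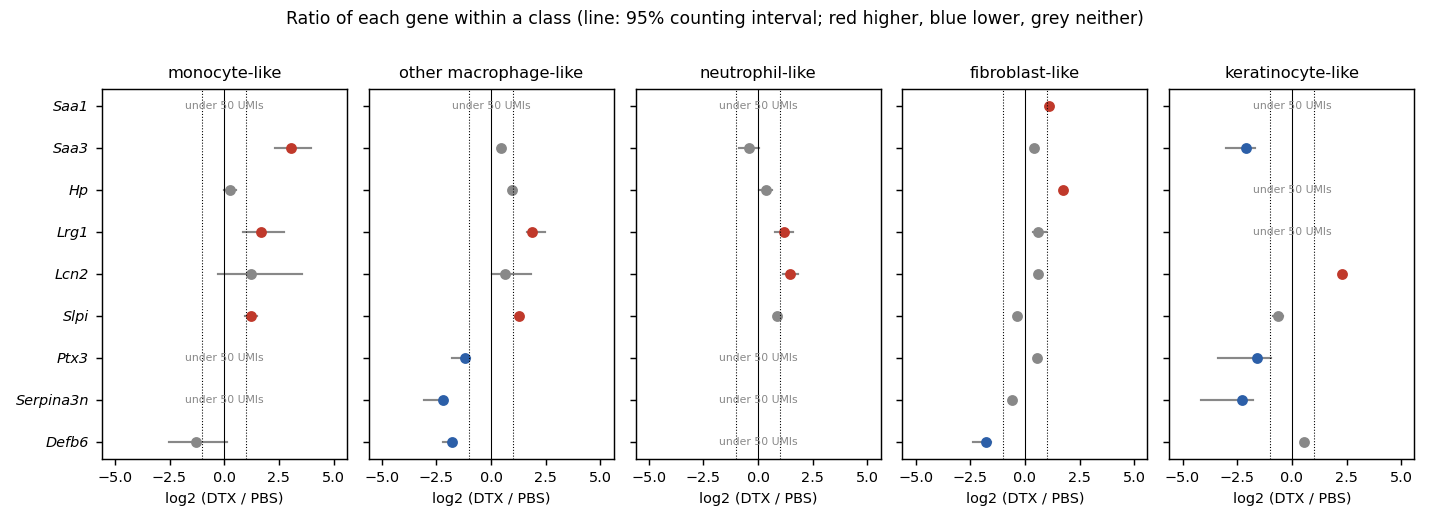
Points give the log2 ratio of DTX to PBS (x axis) of each gene (y axis) in 5 cell classes, and lines give 95% counting intervals, cut at the edge of the axis; red points were called higher, blue lower and grey neither. *Lrg1* and *Slpi* are higher in monocyte-like and other macrophage-like cells, *Lcn2* in neutrophil-like and keratinocyte-like cells, and *Saa1* and *Hp* in fibroblast-like cells.

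Outside these 5 classes, endothelial-like cells held *Lrg1* at levels close to those of neutrophil-like cells. The level was 299 CPM (267 to 334) in 73 PBS cells and 627 CPM (573 to 686) in 54 DTX cells, and in neither library did it differ from that of neutrophil-like cells beyond the counting intervals. The log2 ratio was 1.06 (0.86 to 1.28), and 21 of 70 PBS and 29 of 52 DTX cells held a UMI after thinning. *Lcn2* was called higher there as well, from 64.9 CPM (50.4 to 82.2) to 142 CPM (116 to 171). Of the 9 genes, 3 had enough UMIs in endothelial-like cells, with 2 called higher and 1 lower. The latter was *Serpina3n*, from 49.6 to 18.2 CPM, a log2 ratio of -1.40 (-2.41 to -0.57). The 6 fibroblast genes stood at 7646 and 3715 CPM in the same cells. Over all 4990 genes with enough UMIs, 93 were called higher and 132 lower. The 5 neutrophil genes stood at 0.954 CPM in PBS endothelial-like cells, with 4 of the 5 at 0, and at 281 CPM in DTX, with 1 at 0, and their part in these ratios was not tested. In the PBS library mast-like cells held 2732 CPM of *Slpi* and in the DTX library 821 CPM, with 34 and 18 cells. *Ptx3* in pericyte-like cells stood at 170 CPM in PBS and 261 CPM in DTX, second to fibroblast-like cells in both libraries.

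**Figure D5:**
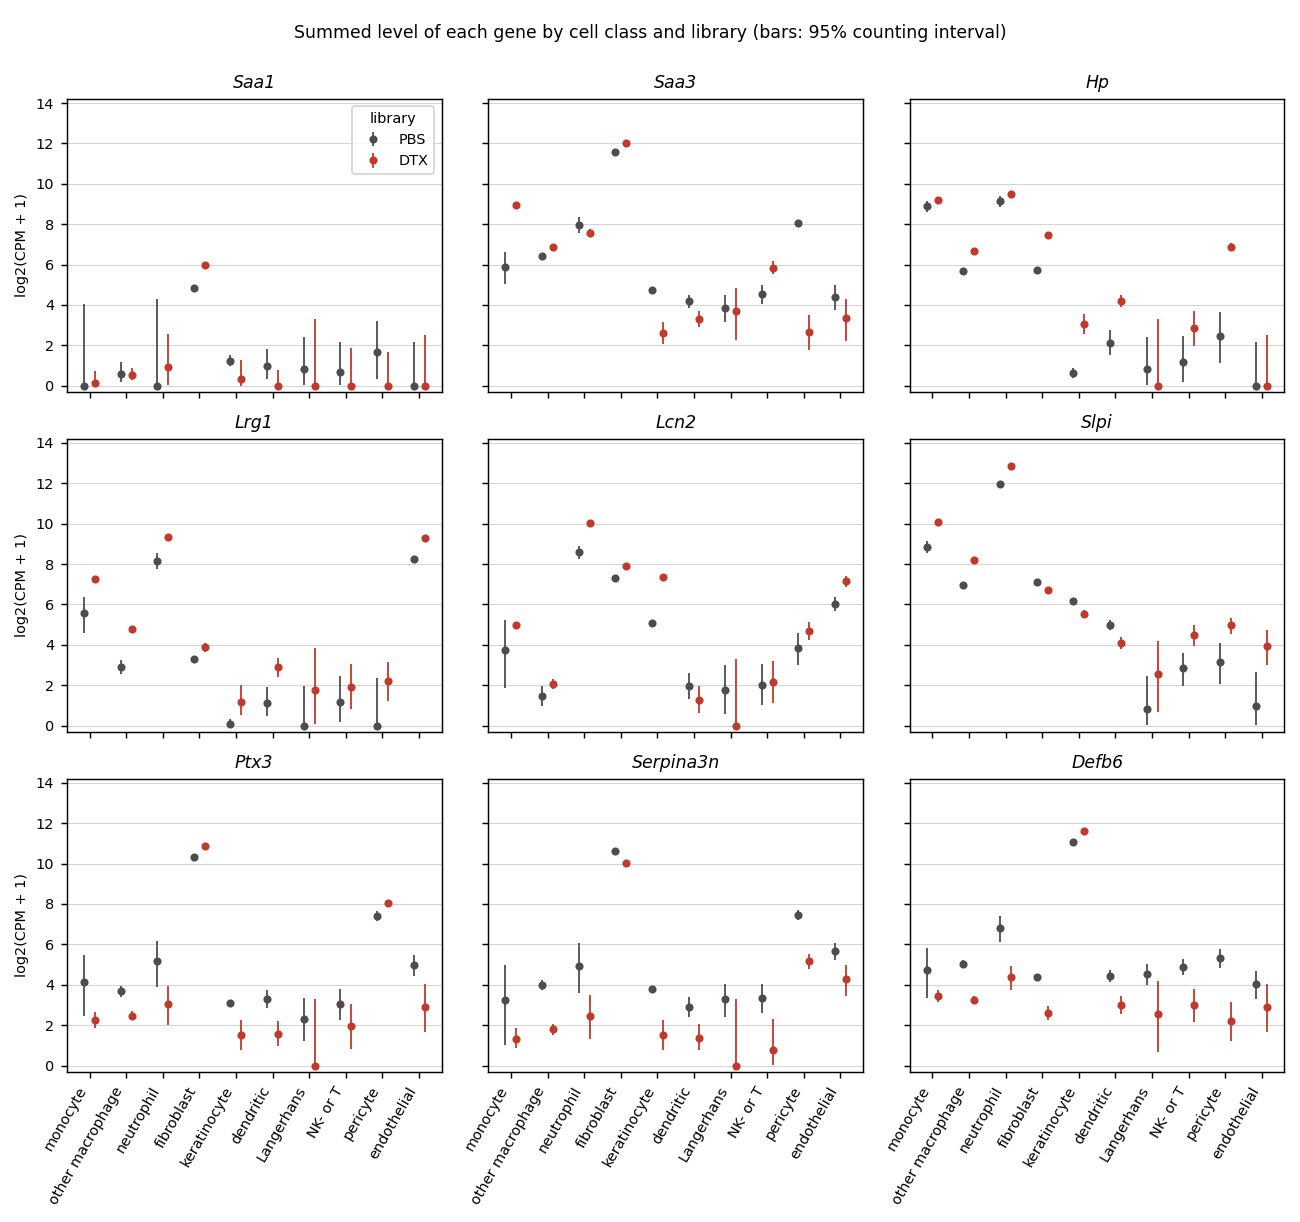
Each panel gives log2(CPM + 1) of 1 gene (y axis) in 10 cell classes (x axis), with PBS in grey and DTX in red and bars for 95% counting intervals. *Saa3*, *Ptx3*, *Serpina3n* and *Saa1* peak in fibroblast-like cells, *Defb6* in keratinocyte-like cells, and *Slpi* and *Lcn2* in neutrophil-like cells; *Serpina3n* and *Defb6* are lower in DTX in each of the classes outside their source.

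Over the 20 sums of 10 classes in 2 libraries, the genes most like each member in their log2 level were as follows. *Ptx3* ran with *C1ra*, *Dpt* and *Gpx3* (Pearson r of 0.98 each) and *Serpina3n* with *Aebp1*, *Cpxm1* and *Mmp2* (0.97 each), and the r between *Ptx3* and *Serpina3n* was 0.95. *Defb6* ran with *Sprr1a*, *Cst6* and *Ly6g6c* (0.99, 0.99 and 0.98). *Saa1* was most like *Lgi3*, *Osr1* and *Wfdc12* (0.97 each), and *Saa3* was most like complement *C3* (0.90), *Igfbp6* (0.88) and *Lpar1* (0.86). *Slpi* ran with *Cebpb* (0.93), *Fpr2* (0.92) and *Mmp8* (0.92), *Hp* with *Pxk* (0.93), *Cebpb* and *Notch2* (0.89 each), *Lrg1* with *Upp1* (0.92) and *Lcn2* with *Ddx3x* (0.84). The r between *Hp* and *Slpi* was 0.87. The sums of 1 library share its depth and its free RNA, and these values describe the classes only.

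Of 21 listed cytokines and receptors in the matrices, 13 had enough UMIs in monocyte-like cells, with 4 called higher (*Osm*, *Il1b*, *Il1rap* and *Il17a*) and 1 lower (*Il6st*). *Il1b*, the gene of interleukin-1 beta, went from 1453 to 4658 CPM in monocyte-like cells and from 3048 to 6912 CPM in neutrophil-like cells, with log2 ratios of 1.68 (1.53 to 1.84) and 1.18 (1.06 to 1.30). *Osm*, the gene of oncostatin M, went from 197 to 658 CPM in monocyte-like cells. *Il6* was a fibroblast-like gene at 358 and 623 CPM, a log2 ratio of 0.80 (0.76 to 0.84). In fibroblast-like cells 3 of 17 were called higher, *Osm*, *Il1a* and *Il1b*, with *Il1b* at 8.82 and 128 CPM. The myeloid gene *Lyz2* also went from 46.5 to 204 CPM in these cells, and the part of myeloid RNA in these calls was not tested. The receptor *Osmr* was at 221 and 213 CPM there.

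Calls in these lists stand beside the shares over all genes given for each class. Of 14 listed transcription factors and regulators of the response, *Socs3*, the feedback inhibitor of STAT3, was the one called higher in monocyte-like, other macrophage-like and neutrophil-like cells, and 0 were called in fibroblast-like and keratinocyte-like cells, where 13 had enough UMIs in each. *Cebpb* stood at 2115 and 2733 CPM in monocyte-like cells and at 4564 and 4783 CPM in neutrophil-like cells, with log2 ratios of 0.37 (0.24 to 0.50) and 0.07 (-0.03 to 0.17). Other acute phase proteins, 25 genes such as *Mt1*, *Mt2* and *Cd14*, gave 0 calls among 5 in monocyte-like cells. In fibroblast-like cells they gave 2 among 15, *Saa2* and *Cd14*, both higher. *Cd14* stood at 11.9 and 72.9 CPM there and at 1910 and 2436 CPM in monocyte-like cells. The part of myeloid RNA in its call was not tested. Called lower were *Serping1* and *Lbp* among 8 in other macrophage-like cells and *Mt2* among 4 in neutrophil-like cells. In keratinocyte-like cells, *Serping1* was called lower (17.0 and 2.83 CPM) and *Cd14* higher (6.08 and 69.0 CPM) among 8. *Serping1* stood at 2359 and 1789 CPM in fibroblast-like cells. The myeloid gene *Lyz2* went from 33.6 to 255 CPM in keratinocyte-like cells. The part of RNA from other cells in these 2 calls, and in that of *Serping1* in other macrophage-like cells, was not tested. Of 25 other antimicrobial and granule proteins, 3 of 10 were called higher in monocyte-like and 3 of 7 in neutrophil-like cells, in both cases *S100a8*, *S100a9* and *Wfdc21*, beside 3.11% and 4.56% of all genes. *S100a8* and *S100a9* are also among the 5 neutrophil genes summed above. In monocyte-like cells *S100a9* had 2 PBS and 354 DTX UMIs, at 8.38 and 40.9 CPM, a log2 ratio of 2.16 (0.42 to 5.34). The part of neutrophil RNA in the monocyte-like calls was not tested. *S100a9*, a calprotectin subunit, went from 22810 to 55949 CPM in neutrophil-like cells, a log2 ratio of 1.29 (1.25 to 1.34). In fibroblast-like cells 8 of 11 were called higher, among them *S100a9*, *Lyz2*, *Wfdc17* and *Chil3*, which are known as products of myeloid cells, and 1 lower (*Defb1*). Among 18 receptors and partners, *Tlr4* was called higher in monocyte-like, other macrophage-like and neutrophil-like cells, and *Fpr1*, a formyl peptide receptor, in the latter 2 classes.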

How the data were processed

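Cells were captured with 10x 3' chemistry, and the authors deposited raw UMI counts per gene and cell for 2 libraries, made with Cell Ranger (6.1.1 per the labels) against mm10. The deposited counts were read as given. A lower limit of 500 genes and an upper limit of 6% of UMIs from mitochondrial genes left the cells used (8326 of 12058 barcodes in PBS, 7188 of 11031 in DTX). Scrublet (in scanpy 1.11.5) removed 382 PBS cells. In the DTX library its threshold called 0 cells, so the 8% with the highest scores (575) were removed. Cells were clustered with Seurat 5.3.0 (2000 variable genes without the 9 genes and the listed context genes that mark no class, 30 components, resolution 0.2) and named from marker lists. Clusters rebuilt here may differ from those of the study. UMIs were summed per class and library, and log2 ratios were taken with 1 CPM added. With 1 library per group no test was made. The call rule was tried on simulated counts with counting error only, changes larger than 2-fold and genes with more UMIs than the lower limit. That trial cannot show how the rule behaves where single cells hold many of the UMIs. The 9 genes, the context lists and the markers were chosen with earlier results of these data known. All 9 genes were named, with up to 4 genes of each context list by UMIs and the 3 genes most like each member. Other context genes named beside small counts were chosen after their values were seen.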

Additional observations from a re-analysis of the deposited data

Results flagged for a closer look

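*Saa3* differed in direction between cell classes under the same comparison. Its log2 ratio of DTX to PBS was 3.06 in monocyte-like cells and 1.31 in NK- or T-like cells, against -2.11 in keratinocyte-like and -5.37 in pericyte-like cells. The difference between classes was not tested, since each group is 1 library. In NK- or T-like cells 60 of the 80 DTX UMIs lay in 1 cell, and in pericyte-like cells 127 of the 235 PBS UMIs lay in 1 cell. Keratinocyte-like cells held 25.5 and 5.15 CPM. The fibroblast RNA in them would carry 23.8 and 5.72 CPM in the fibroblast-like ratio, and its part was not tested further. Fibroblast-like cells held 98.3% of PBS and 84.5% of DTX *Saa3* UMIs in kept cells, with a log2 ratio of 0.41.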

How the results depend on the processing

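No paired analysis was possible because each group holds 1 library. Leaving out a library was not possible for the same reason, and the 43 PBS monocyte-like and 130 PBS neutrophil-like cells limit those ratios. With doublets kept, 0 of the genes were called higher in neutrophil-like cells in place of 2, and 2 in keratinocyte-like cells in place of 1. The latter count was also 2 with at most 10% mitochondrial UMIs and with at least 20 UMIs per gene. Genes called lower in monocyte-like cells numbered 1 in place of 0 with at most 10% mitochondrial UMIs, with every cell given equal weight and with at least 20 UMIs, and the last setting also gave 1 in place of 0 in neutrophil-like cells. In fibroblast-like cells, the count called higher was 1 in place of 2 with median-of-ratios scaling and without the richest cell of each library, and the count called lower was 0 in place of 1 after the level of NK- or T-like cells was subtracted. With at most 2000 genes per cell, 201 PBS and 12 DTX keratinocyte-like cells and 537 PBS and 59 DTX fibroblast-like cells were left. Under that limit 0 genes in place of 3 were called lower in keratinocyte-like cells, and *Saa3* turned to 0.65 there. The ratios of *Slpi* (2.28) and *Defb6* (-0.51) there and of *Saa3* (-0.41) and *Slpi* (0.47) in fibroblast-like cells changed sign. That limit also took fibroblast-like *Saa1* to 4.18, *Ptx3* to 2.74 and *Serpina3n* to -1.81 and other macrophage-like *Ptx3* to -0.94, and 19 of the 34 class ratios, beside *Saa3* in keratinocyte-like cells, and 34 of the 35 shares of UMIs changed beyond their intervals. At the PBS class shares *Defb6* over whole libraries turned to 0.52, *Saa3* to 0.40, *Ptx3* to 0.56 and *Saa1* to 1.03. The cause of these differences was not tested. Leaving out the richest cell and leaving out subclusters led by myeloid genes were chosen after seeing the data. Clustering with all variable genes, resolution 0.4 and 0.1 CPM added changed 0 of the 10 counts of called genes beyond 1.5 times.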
